A study of Mus musculus with 14 samples.

Results

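Type IA-like neurons are described here at embryonic day 18 (E18) and postnatal day 1 (P1) in the mouse spiral ganglion, the cluster of nerve cells that carries sound information from the cochlea to the brain. A cell was counted as type IA-like when its normalized Calb2 value was at least 5 per 10000 UMIs and it had no Lypd1 UMI, so members were chosen by these 2 measured values, where a UMI (unique molecular identifier) marks a single captured RNA molecule. By this rule 511 of the 1326 cells at E18 and P1 were members, out of 5441 cells in the whole series. The series holds 14 droplet single-cell libraries from CD1 mice: 3 at E14, 3 of the apical and 3 of the basal portion at E16, 3 of the whole ganglion at E18 and 2 of the whole ganglion at P1. The mice carried no allele and received no agent named in the labels, and each library pooled ganglia of several embryos or pups, with some sensory epithelium and mesenchyme still attached. The E18 and P1 tissue was dissociated with papain and the E16 tissue with trypsin, so levels at E16 were not set against levels at E18 or P1. Replicates were separate litter pools, per the labels. The library is the unit of every test below. Adjusted p-values are from edgeR's quasi-likelihood test with Benjamini-Hochberg adjustment over all genes tested. In build GRCm38, Calb2 lies at chr8:110137502-110168210 (minus strand), Lypd1 at chr1:125867622-125913101 (minus), Prrx2 at chr2:30834972-30881251 (plus), Necab1 at chr4:14952245-15149794 (minus) and Myl1 at chr1:66924295-66945404 (minus).

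Type I spiral ganglion neurons, the large majority, each contact an inner hair cell and are grouped into the molecular types IA, IB and IC. Type IA neurons are known for calretinin, the calcium-binding protein made by Calb2, and types IB and IC for calbindin (Calb1) and for Lypd1, a small membrane-anchored protein. Type II neurons contact outer hair cells and are known for peripherin (Prph), Gata3 and Th, the enzyme tyrosine hydroxylase. These types are told apart most clearly in the mature ganglion, and the markers overlap earlier.

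Among the genes most raised in the type IA-like cells were a homeobox factor (Prrx2), a muscle myosin light chain (Myl1) and an intermediate filament (Prph), and their promoters are shown because these genes were higher in the same cells. Each sequence runs from 250 bases before to 50 bases after the gene's RefSeq start, in build GRCm38.p6. Capitals mark matches to TATAAA (the core of a TATA box) or to CANNTG (the E-box, bound by basic helix-loop-helix factors), on either strand.
Prrx2, chr2:30845117-30845416, plus strand: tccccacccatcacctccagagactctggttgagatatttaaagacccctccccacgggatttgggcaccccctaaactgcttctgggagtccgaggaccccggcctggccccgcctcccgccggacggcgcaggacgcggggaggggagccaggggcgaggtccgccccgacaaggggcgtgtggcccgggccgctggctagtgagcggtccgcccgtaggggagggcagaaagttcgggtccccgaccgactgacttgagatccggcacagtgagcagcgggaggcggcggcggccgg
Myl1, chr1:66945007-66945306, minus strand: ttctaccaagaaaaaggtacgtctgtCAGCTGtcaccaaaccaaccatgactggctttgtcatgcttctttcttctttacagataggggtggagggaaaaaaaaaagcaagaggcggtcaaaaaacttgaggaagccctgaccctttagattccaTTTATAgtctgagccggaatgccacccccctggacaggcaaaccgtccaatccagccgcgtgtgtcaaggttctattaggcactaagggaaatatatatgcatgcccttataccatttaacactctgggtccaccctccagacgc
Prph, chr15:99054924-99055223, plus strand: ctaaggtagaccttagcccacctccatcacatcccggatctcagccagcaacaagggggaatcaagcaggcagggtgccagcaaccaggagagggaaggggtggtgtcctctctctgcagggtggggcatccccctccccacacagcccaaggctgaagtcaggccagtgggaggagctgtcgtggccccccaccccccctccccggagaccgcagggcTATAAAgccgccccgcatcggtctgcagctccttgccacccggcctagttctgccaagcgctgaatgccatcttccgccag
The Prrx2 window held none of the letters searched, which included TAATTA, a core homeobox motif, and its GC content was 70.3%. The Myl1 window held 1 TATAAA on the opposite strand and 1 CANNTG, at a GC content of 47.3%. The Prph window held 1 TATAAA and was 64.7% GC. Of the 14 genes most raised in the type IA-like cells, 9 were matched in the promoter table, with 11 promoters between them. TATAAA was found in 2 of these 11 against 13.6% of all 32851 promoters of the same length, CANNTG in 7 against 72.3% of all, and TAATTA in 0 against 5.29% of all. The median GC content of all promoters was 52.7%. A match is a description of the letters and not a binding site.

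The other cells of each library fell into 3 classes cut by the same genes. There were 298 cells with Calb2 of at least 5 per 10000 and Lypd1 (double-positive), 412 with Lypd1 and Calb2 below 5 (Lypd1-positive), and 105 with Calb2 below 5 and no Lypd1 (neither gene). The E18 and P1 libraries held 162 to 377 cells each, with a median of 4676 to 11440 UMIs per cell, and of their 1325 barcodes 1 occurred in more than 1 library, and 1 type IA-like cell carried it. E18 replicate 1 stood apart in the mitochondrial ribosomal RNA mt-Rnr2, at 0.61% of the UMIs of its type IA-like cells against 0.0804% to 0.157% in the other 4 libraries, and counts are given without it where it decides them. Haemoglobin RNA was at most 0.00667% of the UMIs of type IA-like cells in any library.

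Calb2 and Lypd1 chose the cells, so their values are given without a test. The type IA-like cells had a median Calb2 value of 33.3, 20.8 and 25.8 per 10000 UMIs in E18 replicates 1, 2 and 3, and of 45.6 and 26.6 in P1 replicates 1 and 2. Their summed Calb2 level was 3419, 2470 and 2722 counts per 1000000 UMIs (CPM) at E18 and 4527 and 2813 at P1, against 810, 446, 466, 1754 and 814 in the other cells of the same 5 libraries in the same order. The Calb2 of the other cells came mostly from the double-positive class, at 1530 to 2860 CPM, with 38.5 to 109 in the Lypd1-positive class and 102 to 152 in the class with neither gene. The rule leaves no Lypd1 in the type IA-like cells, and Lypd1-positive cells held a median of 5 to 14 Lypd1 UMIs, double-positive cells 3 to 6. Just inside the Calb2 threshold, 11 type IA-like cells lay between 5 and 6 per 10000 (median 5.55, 2 to 7 Calb2 UMIs), and just outside it 8 cells with no Lypd1 lay between 4 and 5 (median 4.34, 2 to 5 UMIs).

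Type IA-like cells were 41.6%, 44% and 37% of the cells of E18 replicates 1, 2 and 3, and 31.2% and 34.8% of the cells of P1 replicates 1 and 2. The 95% exact binomial intervals ran from 29.6% to 49.6% over the E18 libraries and from 25.6% to 41.8% over the P1 libraries, and cover counting error only. The mean was 40.9% ± 3.53 (SD, n = 3) at E18 and 33.0% ± 2.58 (SD, n = 2) at P1. Every E18 library lay above both P1 libraries, with an exact two-sided permutation p of 0.2, which is the smallest that 3 against 2 libraries can give. Because a cell drops out of the class when 1 Lypd1 molecule is caught, the cells were also thinned to 5000 UMIs each. The thinned shares were 43.3% ± 2.27 (n = 3) and 38.5% ± 1.33 (n = 2), a smaller gap in the same direction. Shares of the double-positive class ran the other way, 14.9% ± 2.34 at E18 and 35.8% ± 6.96 at P1, and 12.5% ± 2.14 and 29.3% ± 6.66 after thinning, each with exact permutation p = 0.2.

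**Figure D1:**
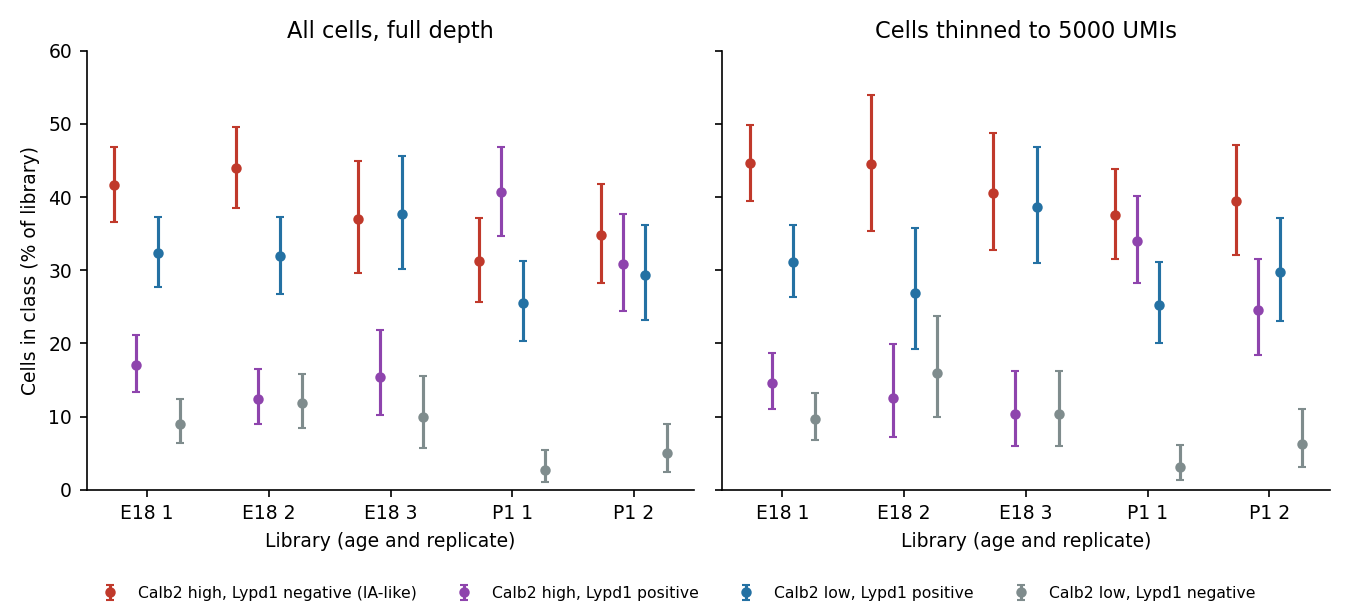
Share of the cells of each E18 and P1 library (percent) in each of the 4 classes, at full depth on the left and with cells thinned to 5000 UMIs on the right. Bars are 95% exact binomial intervals, and the type IA-like share (red) lies between 31.2% and 44% at full depth while the double-positive share (purple) is higher in both P1 libraries than in any E18 library.

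The class was next described with markers that the rule did not use. These were chosen with earlier results of these data known, so they are not an independent check of its name. All 3 of the other type IA markers were higher in the type IA-like cells than in the other cells of the same library, among 414 genes higher (5.29%) and 413 lower (5.28%) of 7824 tested, 10.6% in all (20.9% at an unadjusted p under 0.05). Prrx2, a paired-type homeobox factor, measured 204, 127 and 142 CPM at E18 and 222 and 185 at P1, against 70.3, 45.9, 38.1, 72.7 and 49.9 in the other cells. The lowest type IA-like library lay above the highest sum of other cells, and the log2 difference was 1.61 (SE 0.09, adjusted p = 4.0e-23, higher in 5 of 5 libraries). Necab1, a neuronal calcium-binding protein, measured 86, 72.1, 59.7, 79.6 and 64.2 CPM against 39.9, 18.8, 28.1, 21.6 and 26.9, again without overlap. Its log2 difference was 1.38 (SE 0.14, adjusted p = 1.7e-12, higher in 5 of 5).

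Myl1, the essential light chain of skeletal muscle myosin, measured 102, 291 and 94.8 CPM at E18 and 113 and 170 at P1. In the other cells it measured 11.3, 51.8 and 5.61 CPM at E18 and 67.2 and 57.9 at P1. The groups did not overlap (log2 difference 1.85, SE 0.16, adjusted p = 1.1e-15, higher in 5 of 5), although this call is lost when the fit has no library block (adjusted p = 0.0855). Its UMIs lay in few cells: 129 of 511 type IA-like cells (25.2%) had a Myl1 UMI, 26 cells held 73.4% of the 587 UMIs, and 1 cell held 36. Prrx2 was found in 348 cells (68.1%) and Necab1 in 193 (37.8%), with 20.1% and 27.1% of their UMIs in the top 26 cells.

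Detection was compared in cells of at least 5000 UMIs, each thinned to that number, which kept 407 of 511 type IA-like cells, and 55 of 142 in E18 replicate 2. Prrx2 was detected in a mean of 57.5% of these type IA-like cells (52.7% to 62.3% over 5 libraries). The share was 29.9% of 263 double-positive cells and 10.3% of 314 Lypd1-positive cells. It was 31.7% of the cells with neither gene, a mean over the 3 libraries with at least 10 such cells (34, 17 and 16). Myl1 was detected in 20.3%, 9.3%, 1.21% and 16.8% of these classes in the same order. The Lypd1-positive cells had the lowest share of both. Without thinning, Prrx2 was detected in 69.8% of type IA-like and 14.3% of Lypd1-positive cells, whose median depths were 4726.5 to 11410.5 and 4437 to 11234 UMIs over the libraries.

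Of 6 further type IA genes tested, 3 were higher and 1 was lower. Rxrg, a retinoid receptor, was higher (log2 difference 1.59, SE 0.15), as were Pcdh20, a protocadherin (2.02, SE 0.25), and Mdga1, a cell-surface protein of the synapse (0.34, SE 0.05). Esrrg, an estrogen-related nuclear receptor, was lower (-0.41, SE 0.12, adjusted p = 0.013). Of 5 type IB and IC markers tested apart from Lypd1, 4 were lower (Ntng1, Calb1, Pou4f1 and Runx1) and 0 higher. The median log2 difference over these lists was 1.61 for the 3 type IA markers, 0.35 for the further type IA genes and -2.73 for the type IB and IC markers, against 0.00 for all genes tested.

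On the lower side, the 14 genes named included the 4 type IB and IC markers that passed. Pou4f1, a POU homeobox factor of sensory neurons, had 2 UMIs in all type IA-like cells together and 412 in the other cells, a ratio per UMI of 130 (95% counting interval 35.8 to 1080). Espn, the actin-bundling protein espin, measured 2.97, 1.44, 3.51, 5.6 and 1.83 CPM against 117, 42.4, 41.5, 101 and 63.9 (log2 difference -4.66, SE 0.23, lower in 5 of 5). Ntng1, the membrane-anchored netrin G1, measured 17.1, 64.9, 28.1, 16.8 and 31.2 CPM against 298, 416, 565, 331 and 440 (log2 difference -3.77, SE 0.11). In each of these the highest type IA-like library lay below the lowest sum of other cells.

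Slc17a6, a vesicular glutamate transporter, measured 5.93, 5.77, 7.02, 11.2 and 7.33 CPM in the type IA-like cells against 84.8 to 111 in the other cells (log2 difference -3.61, SE 0.19). Calb1 measured 26.7, 14.4, 17.6, 21.3 and 7.33 CPM against 68.8 to 175 (log2 difference -2.73, SE 0.14). Runx1, a runt-family transcription factor, measured 28.2 to 54.8 CPM against 182 to 287 (log2 difference -2.69, SE 0.12). The other genes named on the lower side were Bhlhe22 (-4.02), a helix-loop-helix factor, Mgat4c (-3.85), Cdk14 (-2.79), a cyclin-dependent kinase, Tshz1 (-2.53), Fam3c (-2.39), Anks1b (-2.39), Nmrk1 (-2.11) and Hmcn1 (-2.06), an extracellular matrix protein. Of the 14 genes named on this side, Hmcn1 lost its call when the fit had no library block (adjusted p = 0.0674). Against the cells with neither gene alone, 10 of the 14 kept their sign and 5 passed, where 2.32% of all genes passed as lower. These 5 were Ntng1, Slc17a6, Tshz1, Fam3c and Hmcn1. Pou4f1 and Espn did not pass there, nor did Calb1 (0.59) and Runx1 (0.08). Against the double-positive cells 13 passed, and against the Lypd1-positive cells all 14, where 2.79% and 7.74% of all genes passed as lower. These 2 classes make up most of the other cells against which the genes were picked, so these counts are no separate support.

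On the higher side, Nexn, the actin-binding protein nexilin, had the largest log2 difference of the genes that the naming rule takes, 2.46 (SE 0.24). It measured 22.2, 15.9 and 24.6 CPM at E18 and 66.1 and 38.5 at P1, against 5.36, 2.35, 2.24, 9.53 and 9.98 in the other cells. Clu, the secreted chaperone clusterin, measured 812, 1070, 1254, 602 and 842 CPM against 328, 464, 443, 237 and 345 (log2 difference 1.29, SE 0.05), and was found in 498 of 511 type IA-like cells. Kctd12, an auxiliary subunit of the GABA-B receptor, measured 97.9, 75, 47.4, 62.8 and 45.8 CPM against 26.2, 21.2, 24.7, 21.1 and 9.98 (log2 difference 1.67, SE 0.15). All of these were separated without overlap. Further genes on this side were Wscd2 (1.83), Dok5 (1.82), an adaptor of receptor tyrosine kinases, Creg2 (1.60), Ceacam10 (1.45), Igsf21 (1.39), a synaptic adhesion protein, and Prph (1.38). Of the 14 genes named on this side, 3 also passed against the cells with neither gene alone (Nexn, Myl1 and Prrx2), where 3.13% of all genes passed as higher. All 14 passed against the double-positive and against the Lypd1-positive cells, where 2.1% and 7.52% of all genes passed as higher. Those classes, 298 and 412 cells, make up most of the other cells against which the genes were picked. Their counts are thus no separate support.

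**Figure D2:**
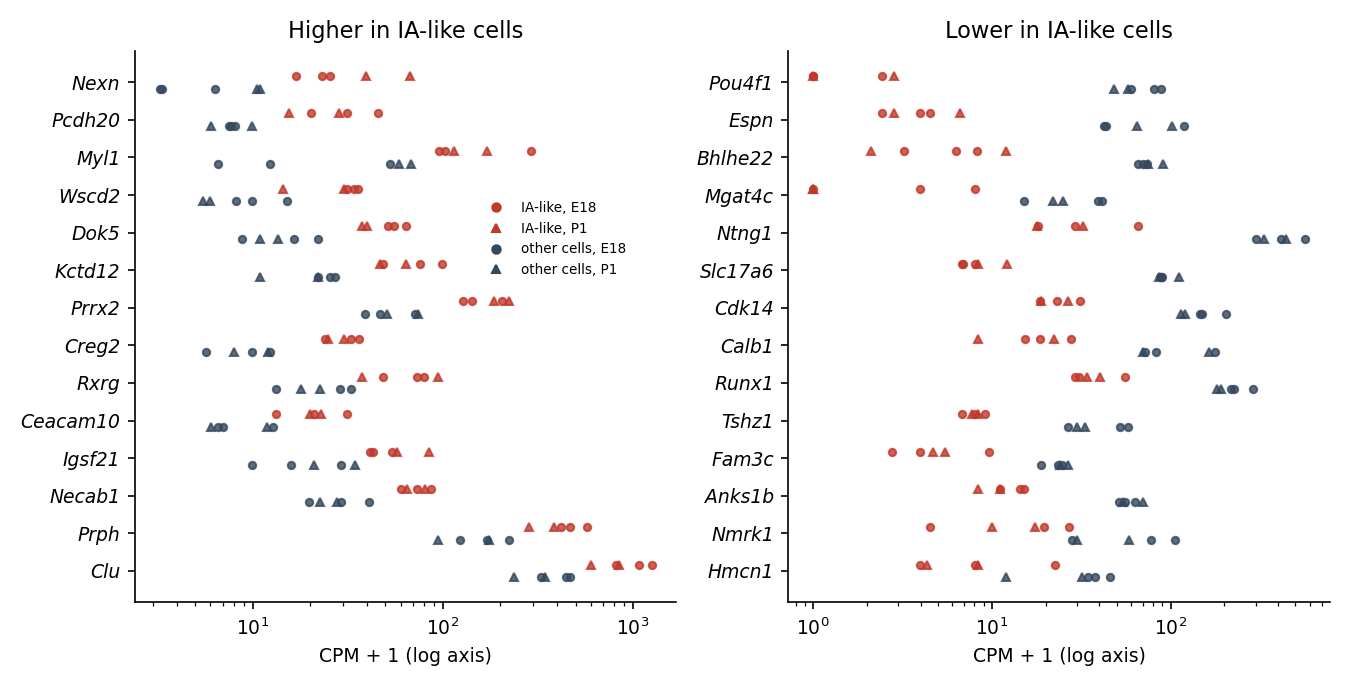
Level of the 14 genes named on each side (CPM plus 1, log axis) in type IA-like cells (red) and in the other cells of the same libraries (blue), 1 point per library, circles E18 and triangles P1. Prrx2, for example, lies at 127 to 222 CPM in red and at 38.1 to 72.7 CPM in blue.

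Markers of the type II neurons were not low in the type IA-like cells. Of 7 tested against the other cells, 5 were higher, among them Prph, Tle4, Gata3 and Th, and 1 was lower (Etv4). Over all genes 5.29% were higher and 5.28% lower. Prph measured 575, 469 and 416 CPM at E18 and 386 and 282 at P1, against 222, 122, 170, 174 and 93.8 (SE 0.07, adjusted p = 1.1e-26). Tle4, a corepressor, was higher by 1.05 on the log2 scale (SE 0.06). Th was higher by 0.65 (SE 0.20, adjusted p = 0.025), with E18 replicate 3 in the other direction (33.4 CPM against 37). Th was found in 81 of 511 type IA-like cells (15.9%), and 26 cells held 50.9% of its 112 UMIs. A UMI can come from free RNA: Hbb-bs, a haemoglobin gene that neurons should lack, was detected in 16.4% of type IA-like and 15.4% of Lypd1-positive cells, against 16.1% and 0.388% for Th (means over libraries). The part of free RNA in the Th UMIs was not tested. The summed level of the whole type II list of 10 genes was 1750 to 2930 CPM in the type IA-like cells and 1040 to 2130 in the other cells, with Smad3 at 0 in both.

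Pan-neuronal markers summed to 15000 to 17800 CPM in the type IA-like cells and to 14700 to 18100 in the other cells. Of the 10, Map2 and Elavl4 were higher and Rbfox3 and Nefl lower. Markers of other cell types were scarce in both: the summed glia markers lay at 10.1 to 30.4 CPM in type IA-like and 23.1 to 60.8 CPM in other cells, otic mesenchyme at 39.2 to 111 and 56.7 to 84, hair cells at 31.9 to 81.8 and 71.2 to 94.8, supporting epithelium at 6.73 to 12.8 and 8.02 to 22.4. Endothelium summed to 0.742 to 11 CPM in the type IA-like cells, macrophages to 0 to 3.51 and red blood cells to 7.33 to 66.7. Atoh1, Cdh5, Cx3cr1, Jag1, Otog, Cdh19, Hba-a2 and the neuroblast gene Neurog1 were at 0 in all type IA-like cells. The part of these cell types in the differences was not tested.

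Transcription factors were the list with the most calls. Of 24 tested, 10 were higher and 8 lower, against 10.6% of all genes called, with a median of -0.04 against 0.00 for all genes. Beside those given above, Tshz2 (log2 difference 0.46), Maf (0.43), Lmo4 (0.41), Isl1 (0.29) and Pou4f2 (0.54) were higher. Against the cells with neither gene alone, Isl1 was higher (0.34) and Maf was lower instead (-0.50, adjusted p = 0.0025). Tshz2 (0.29), Lmo4 (0.37) and Pou4f2 (-0.01) did not pass there. Ebf1 was lower by 0.89 on the log2 scale, as were Etv4, Zfhx4 and Nfia, at -0.83, -0.59 and -0.42. The related POU factors thus differed in opposite directions, Pou4f2 at 58.6, 41.8, 28.1, 39.2 and 58.7 CPM against 30.4, 36.5, 19.1, 38.1 and 27.9, and Pou4f1 at 0 to 1.83 CPM against 47.1 to 87.1. The 2 sets of Pou4f2 values overlapped between libraries but not within any library.

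Calcium-binding proteins were 2 higher and 6 lower of 14 tested, against 5.29% and 5.28% of all genes. Necab1 and Hpcal1 (0.37) were higher. Among the lower were Calb1, S100b, Vsnl1, Pvalb and Calm2. S100b measured 46.7, 41.8, 19.3, 24.7 and 91.7 CPM against 176, 142, 165, 144 and 228 (log2 difference -2.00, SE 0.12). Pvalb, parvalbumin, measured 1875, 1343, 1965, 2634 and 3280 CPM against 2831, 2850, 3442, 3605 and 4660 (log2 difference -0.71, SE 0.04, lower in 5 of 5). Both encode EF-hand proteins, as Calb2 does, and both were lower than in the other cells pooled. Against the Lypd1-positive and the double-positive cells, Calb1, S100b, Vsnl1, Pvalb and Calm2 were each lower. Against the cells with neither gene alone, Pvalb (1.67), Vsnl1 (1.73) and Calm2 (0.44) were higher instead. S100b (0.73, adjusted p = 0.305) and Calb1 (0.59) did not pass there. Of the 2 genes on the higher side, Hpcal1 was lower there (-0.375, adjusted p = 0.0418) and Necab1 did not pass (-0.37, adjusted p = 0.43). Among type IA-like cells, Pvalb was higher at or above the median Calb2 value (0.73), while S100b did not pass (0.52, adjusted p = 0.327).

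Genes of excitability and release differed in both directions, and their counts are to be read against the 10.6% called over all genes. Of 22 synaptic vesicle and release genes tested, Syt7, a slow calcium sensor, was higher (0.80, SE 0.08) and Syt2 and Syt1, fast calcium sensors, were lower (-1.27, SE 0.21, and -0.45, SE 0.15). Against the cells with neither gene alone, Syt2 was higher instead (5.61, SE 1.49, adjusted p = 0.0074). Of 13 potassium channel genes, Kcnab1 (0.76), Kcnk1 (0.67) and Kcna2 (0.61) were higher and Kcna1 was lower, at 23.7, 24.5, 19.3, 23.5 and 22 CPM against 92.4, 60.1, 56.1, 69.2 and 38.9 (log2 difference -1.60, SE 0.15). Kcna1 and Kcna2 encode related channel subunits, and they differed in opposite directions. Of 8 sodium channel genes, 1 was higher and 3 were lower, Scn1a (-0.73), Fgf13 (-0.58) and Scn9a (-0.35). Cacna1h (0.62) and Cacnb4 (0.41) were the 2 of 14 HCN and calcium channel genes that passed. Slc17a6 and Gria3 were lower among 7 glutamate genes, and Slc17a7, the other vesicular glutamate transporter, had a log2 difference of 0.34 (SE 0.12) that did not pass (adjusted p = 0.07).

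Among guidance receptors, Unc5b (1.00, SE 0.15) and Unc5d (0.70, SE 0.11), netrin receptors, were higher, while Unc5c, of the same family (-0.64, SE 0.19), was lower. Sema3a, a repulsive semaphorin (-1.85, SE 0.27), Efna5 (-1.18), Robo2 (-0.70), Epha5 (-0.19) and Ntng1 were also lower, which makes 2 higher and 6 lower of 19 tested, where 10.6% of all genes were called. Efna5 was lower only against the cells with neither gene (-3.62). It was higher against the Lypd1-positive cells, with 40 UMIs against 2 (ratio per UMI 14.9, 95% counting interval 3.88 to 128). Against the double-positive cells it did not pass (1.11, adjusted p = 0.27). Adhesion genes were 3 higher (Pcdh20, Cntn5 at 0.97 and Mdga1) and 3 lower (Pcdh7 at -2.03, Cdh2 at -0.63 and Pcdh11x at -0.57) of 15. Of 5 neurotrophin and GDNF-family receptors, Gfra2 (0.96), Gfra1 (0.54) and Ntrk3 (0.28), the NT-3 receptor, were higher and 0 lower. Gfra1 was lower instead against the cells with neither gene alone (-0.9995, adjusted p = 0.00487). Gfra2 (-0.46) and Ntrk3 (0.15) did not pass in that comparison. In the list of neurofilament and axonal cytoskeleton genes, 4 of 15 were higher (Map2, Map1b, Prph and Nefh at 0.47) and 3 were lower (Mapt at -0.23, Nefl and Gap43 at -0.50). Glycolysis genes were 1 higher and 1 lower of 17, a share near the 10.6% of all genes. Jun (-1.34, SE 0.08) and Fosb (-0.60) were lower and 0 higher among 10 immediate early and stress genes, a list that can also respond to dissociation, whose part was not tested. The medians of these lists lay between -0.30 and 0.28, against 0.00 for all genes.

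Each of the 3 other classes was then compared with the type IA-like cells separately, in 1 fit with the library as a block. The class with neither gene in P1 replicate 1 had 7 cells and was left out. Against the Lypd1-positive cells, 1116 of 7317 genes passed (15.3%), 550 higher (7.52%) and 566 lower (7.74%) in the type IA-like cells. Against the double-positive cells, which share Calb2, 358 passed (4.89%), 154 higher (2.1%) and 204 lower (2.79%). Against the cells with neither gene, which share the lack of Lypd1, 399 passed (5.45%), 229 higher (3.13%) and 170 lower (2.32%), and this count was 213 without E18 replicate 1. The classes differ in cell number, 412, 298 and 105, so the counts are not a ranking of distance, and all 3 comparisons share the type IA-like cells.

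Against the Lypd1-positive cells Myl1 had the largest difference of the genes named on the higher side. Necab1 measured 59.7 to 86 CPM against 0 to 10.2 (log2 difference 3.80, SE 0.27), and Myl1 94.8 to 291 CPM against 0 to 4.28 (5.96, SE 0.34). Th had 112 UMIs against 2, a ratio per UMI of 41.9 (95% counting interval 11.3 to 350), and Pcdh20 120 against 3, a ratio of 29.9 (9.99 to 147). Nexn (3.89) and Dok5 (3.41) were also named. On the lower side were Pou4f1, with 2 UMIs against 360 (ratio 241, interval 66.2 to 2000), Espn (-5.42), Bhlhe22 (-4.66), Mgat4c (-4.58), Ntng1 (-4.27) and Slc17a6 (-4.08). All 3 type IA markers tested were higher, 4 of 5 type IB and IC markers were lower, and 7 of 8 type II markers were higher with 0 lower. Over all genes 7.52% were higher and 7.74% lower in this comparison.

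The double-positive cells lay between the type IA-like and the Lypd1-positive cells for several of these genes. Prrx2 measured 39.9 to 110 CPM there, against 13.8 to 34.3 in Lypd1-positive and 127 to 222 in type IA-like cells, and the difference of the type IA-like from the double-positive cells was 1.16 (SE 0.12, adjusted p = 5.8e-14). Clu followed the same order at 248 to 503, 150 to 238 and 602 to 1254 CPM, with a difference of 1.15 (SE 0.07), while the cells with neither gene had 717 to 1067 CPM, within the range of the type IA-like cells. Runx1 lay nearer the Lypd1-positive cells: it measured 182 to 296 CPM in double-positive and 201 to 366 in Lypd1-positive cells, and 28.2 to 54.8 in type IA-like cells, a difference of -2.72 (SE 0.14) from the double-positive cells. Calb1 was furthest apart from the double-positive class (-3.42, SE 0.16), as against -2.41 (SE 0.18) from the Lypd1-positive class. Whether these 2 differences are unequal was not tested.

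The other genes named against the double-positive cells were Th (2.38, SE 0.38), Kctd12 (1.83), Tacc2 (1.81), Nexn (1.76), Dok5 (1.64) and Pcdh20 (1.64) on the higher side. Th measured 22 to 33.4 CPM in the type IA-like cells and 0 to 7.53 in the double-positive cells, without overlap. Tacc2, Nexn and Pcdh20 lose their calls with no library block (adjusted p = 0.0588, 0.197 and 0.0756), and Pcdh20 also without E18 replicate 1 (1.12, adjusted p = 0.144). On the lower side were Pou4f1, with 2 UMIs against 51 (ratio 39.4, interval 10.4 to 334), Espn (-3.54), Calb1, Ntng1 (-3.38), Pld5 (-3.31) and Bhlhe22 (-3.17).

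**Figure D3:**
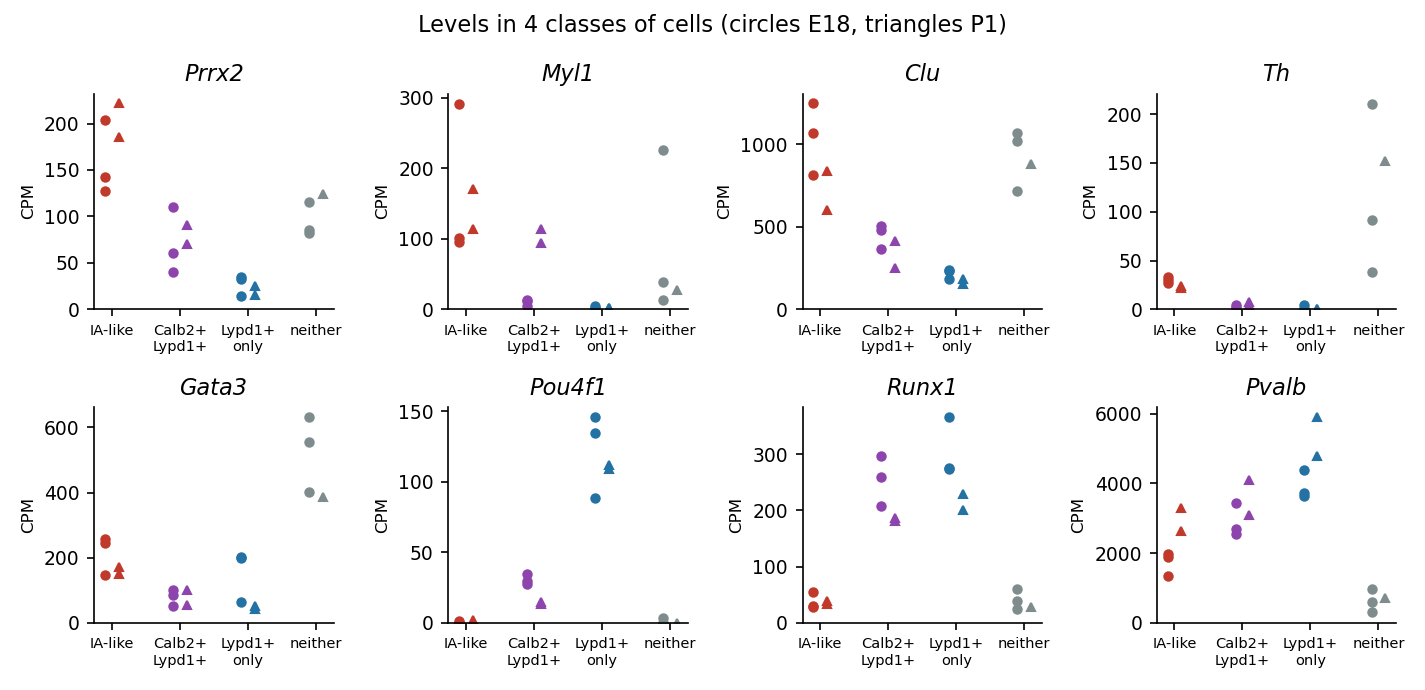
Level (CPM, linear axis from 0) of 8 genes in the 4 classes of cells, 1 point per library, circles E18 and triangles P1. Prrx2 is highest in the type IA-like cells (127 to 222 CPM) and lower in the double-positive cells (39.9 to 110), Runx1 lies at 182 to 296 CPM in the double-positive cells against 28.2 to 54.8 in the type IA-like cells, and Th and Gata3 are highest in the cells with neither gene.

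Type II markers were highest in the cells with neither gene. Against that class 0 of 8 type II markers were higher and 5 were lower in the type IA-like cells, where 3.13% and 2.32% of all genes were. Gata3, a zinc finger factor, measured 246, 257, 148 and 150 CPM in E18 replicates 1 to 3 and P1 replicate 2, against 555, 633, 402 and 386 (log2 difference -1.20, SE 0.13, adjusted p = 2.1e-13). Th measured 30.4, 27.4, 33.4 and 22 CPM against 91.4, 38.5, 211 and 152 in the same libraries (log2 difference -1.91, SE 0.26). Prph did not show this order, at a log2 difference of 0.00 (SE 0.11), which did not pass.

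The cells with neither gene were further apart from the type IA-like cells in Iqgap2, a scaffold protein, with 3 UMIs in type IA-like cells against 49 (ratio 85.8, interval 27.7 to 430). The UMI counts and ratios in this paragraph include P1 replicate 1, which the tests against this class leave out. Sox9, a factor of glia and supporting cells (-3.72, SE 0.59), Efna5 (-3.62), Oprk1, the kappa opioid receptor (-3.58), Slc9a3r1 (-3.38) and Fstl5 (-3.10) were also lower in the type IA-like cells. Pvalb was higher in the type IA-like cells than in this class, at 1343 to 3280 CPM against 316 to 958 (log2 difference 1.67, SE 0.11), the reverse of its direction against the other classes. Higher as well were Cd302 (2.62), Ppp1r27 (2.29), Ppp3cc (2.21), Ppl with 150 UMIs against 2 (ratio 14.3, interval 3.88 to 119), Gfod1 with 95 against 3 (6.03, 2 to 29.8) and Car12 with 79 against 2 (7.52, 2.01 to 63.2). Of these, Ppp1r27, Ppp3cc and Car12 lose their calls with DESeq2 (adjusted p = 0.132, 0.0695 and 0.0877). Without E18 replicate 1 Ppp3cc (1.58, adjusted p = 0.214) and Car12 (adjusted p = 0.292) lose them too, as do Ppp3cc without E18 replicate 2 (adjusted p = 0.121), Ppp1r27 (0.0568) and Car12 (0.0649) without E18 replicate 3, and Ppp1r27 without P1 replicate 2 (0.0812). Ppp1r27 was lower than in the double-positive (-2.52) and the Lypd1-positive cells (-1.98). Cd302 (-0.43) and Car12 (-0.78) were lower than in the double-positive cells, and Cd302 was higher than in the Lypd1-positive cells (0.41). Of the type IA markers, Prrx2 (0.80, SE 0.18) and Myl1 (0.90, SE 0.26) were higher than in the cells with neither gene. Necab1 did not pass (-0.37, SE 0.21, adjusted p = 0.43). In P1 replicate 1, which this test leaves out, Myl1 measured 113 CPM in type IA-like cells against 262 in the 7 cells with neither gene.

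Type IA-like cells were not uniform, and their own Calb2 level was used to describe this. In each library the cells at or above the median Calb2 value were summed and compared with those below it. Of 4825 genes, 94 passed (1.95%), 49 higher (1.02%) and 45 lower (0.933%) in the high-Calb2 cells, but 0 passed with no library block and 25 without E18 replicate 1. Pvalb measured 2362, 1682, 2558, 3105 and 3881 CPM in the high-Calb2 cells against 1341, 969, 1363, 2089 and 2610 in the low-Calb2 cells (log2 difference 0.73, SE 0.05, higher in 5 of 5). Synm, an intermediate filament (1.16), Lgi2 (0.78), Smim1 (0.77) and Rbfox3, a neuronal splicing factor (0.73), were higher too. Gfra1, a GDNF receptor (-1.07), Ntm, a neuronal adhesion protein (-0.94), Nxn (-0.68), Gata3 (-0.63) and Rhou (-0.63) were lower. Without E18 replicate 1, Pvalb, Lgi2 and Ntm passed, and Gata3 (adjusted p = 0.0724), Smim1 (0.0999), Synm (0.111), Nxn (0.144), Rhou (0.144), Rbfox3 (0.253) and Gfra1 (0.292) did not.

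Gata3 measured 176, 215, 115, 150 and 122 CPM in the high-Calb2 cells and 323, 303, 181, 198 and 182 in the low-Calb2 cells. By Calb2 range, it measured 482 ± 147 CPM (SD, n = 2 libraries) at 5 to 10 per 10000, 247 ± 92 (n = 4) at 10 to 20, 167 ± 46.6 (n = 5) at 20 to 40 and 156 ± 37.9 (n = 5) at 40 and over. The cells with neither gene, below 5, stood at 494 ± 120 (n = 4), which is within the spread of the cells at 5 to 10. Pvalb ran the other way, at 650 ± 266 CPM below 5, then 560 ± 139, 1490 ± 629, 2270 ± 945 and 2800 ± 492. A sum was made only where a library had at least 10 cells in the range, so the range from 5 to 10 rests on 2 libraries, although 47 cells of all 5 lie in it. The summed cells with Calb2 of 5 to 10 per 10000 were thus nearer in both genes to the mean of the cells with neither gene than to the cells at 20 and over, a description with no test. Most of the cells with neither gene lie well below the threshold, since 37.5% to 60% of them had no Calb2 UMI. Prrx2 had no such trend in the split by Calb2 level (log2 difference 0.08, SE 0.11, adjusted p = 0.88). Over the same Calb2 ranges and libraries, Th measured 123 ± 74.5 CPM below 5, then 55.5 ± 64.9, 55.4 ± 15, 18.6 ± 4.55 and 15.8 ± 9.8. This too is a description with no test.

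**Figure D4:**
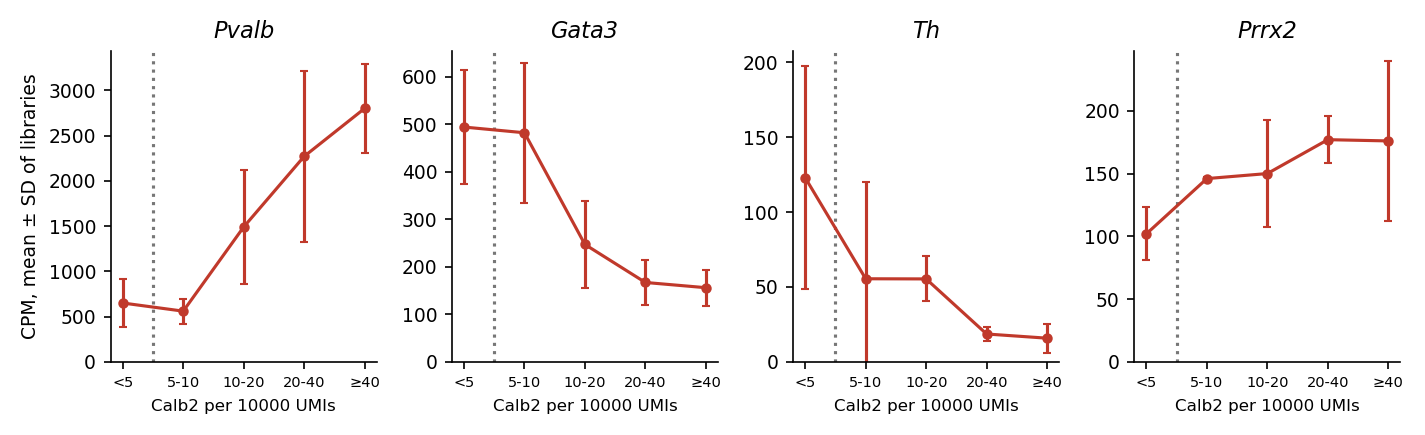
Level (CPM, mean ± SD of the libraries with at least 10 cells in the range) of 4 genes against the Calb2 level of cells with no Lypd1 at E18 and P1. The dotted line is the threshold of 5 per 10000 that defines the type IA-like cells: Pvalb goes from 560 to 2800 CPM and Gata3 from 482 to 156 across their Calb2 ranges, while Prrx2 lies between 146 and 177.

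Between the ages, 0 of 7620 genes passed in the type IA-like cells themselves by edgeR's quasi-likelihood test (0%, P1 against E18, 3 libraries against 2). At an unadjusted p under 0.05 there were 309 genes (4.06%), and DESeq2 called 2, Gm10320 (-4.93) and Tnnt1 (3.40), a troponin gene, both outside the naming rule and named after their values were seen. In simulated data of this design 14.4% of genes changed 2-fold and 86.2% of genes changed 4-fold were called, so most changes of 2-fold would have been missed. Prrx2 measured 158 ± 40.8 CPM (SD, n = 3) at E18 and 204 ± 26 (n = 2) at P1, a log2 difference of 0.47 (SE 0.25, adjusted p = 0.98). Myl1 measured 163 ± 112 and 142 ± 40.5 CPM. Pvalb was higher in both P1 libraries than in any E18 library, at 2634 and 3280 against 1343 to 1965 CPM, with a log2 difference of 0.88 (SE 0.30) that did not pass (adjusted p = 0.98).

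The difference between the type IA-like and the other cells was next asked to depend on age. Of 7824 genes 3 passed this interaction (0.0383%; 5.82% at an unadjusted p under 0.05), Myl1 lower (0.0128%) and Gata3 and Pvalb higher (0.0256%) at P1. Gata3 in the type IA-like cells was 246, 257 and 148 CPM at E18 against 231, 266 and 118 in the other cells, and 173 and 150 at P1 against 96.8 and 73.8. The log2 differences per library were 0.09, -0.05 and 0.32 at E18 and 0.83 and 1.02 at P1, and the interaction was 0.79 (SE 0.16, adjusted p = 0.006). For Pvalb it was 0.32 (SE 0.07, adjusted p = 0.044). For Myl1 the differences per library were 3.06, 2.47 and 3.86 at E18 and 0.74 and 1.54 at P1, with an interaction of -1.82 (adjusted p = 7.4e-09).

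All 3 calls are lost with DESeq2, with no library block and without P1 replicate 1. The other cells also differ in make-up between the ages, since the double-positive share was 14.9% at E18 and 35.8% at P1. Against the Lypd1-positive cells alone, a comparison added after the data were seen, Gata3 kept an interaction of 1.28 (adjusted p = 0.0292), Pvalb was 0.30 (adjusted p = 0.666) and Myl1 was 0.16 (adjusted p = 0.996), with its sign turned. The Myl1 of the other cells at P1 lay in few double-positive cells: 15 of 107 in P1 replicate 1 and 13 of 62 in P1 replicate 2 had a UMI, and 1 cell held 73 of the 112 UMIs of P1 replicate 1.

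The same rule was applied to the E16 libraries. It took 223 cells at E16 and 0 at E14. By library the shares were 0.915%, 2.02% and 6.45% in the apical replicates 1, 2 and 3 and 3.4%, 14.8% and 24.4% in the basal replicates 1, 2 and 3, each basal library above the apical library of its number. Only 4 libraries held at least 10 such cells (11, 32, 69 and 100), and these were compared with the other cells of the same library. They are the apical and basal portions of replicates 2 and 3, cut from the same ganglia, so 4 libraries stand for 2 litter pools and p-values that count them as 4 are too small. Of 8984 genes 169 passed (1.88%; 9.52% at an unadjusted p under 0.05), 65 higher (0.724%) and 104 lower (1.16%), and the count was 72 without basal replicate 3.

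The genes named at E18 and P1 mostly differed in the same direction at E16. Of the 14 on the higher side 12 were tested, 12 had the same sign and 7 passed, with a median of 0.75 against 0.00 for all genes tested at E16. Of the 14 on the lower side 13 were tested, 13 had the same sign and 12 passed, with a median of -1.74. Prrx2 measured 56 and 112 CPM in the cells of apical replicates 2 and 3 and 135 and 144 in those of basal replicates 2 and 3, against 24.7, 43, 89.6 and 87.5 in the other cells (log2 difference 0.80, SE 0.15, adjusted p = 0.00027). Clu (0.70), Kctd12 (0.88), Rxrg (0.92), Necab1 (0.68), Prph (0.61) and Nexn (1.23) passed too, Nexn with an adjusted p of 0.0515 without apical replicate 2 and 0.257 without apical replicate 3. On the lower side Slc17a6 (-3.23), Hmcn1 (-2.44), Ntng1 (-2.36) and Cdk14 (-2.16) were furthest apart of those named at the later ages, Pou4f1 and Mgat4c apart, and Fam3c was tested without passing (-1.29, adjusted p = 0.19).

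Gata3 differed from this pattern. At E16 it measured 406, 326, 310 and 292 CPM in the cells that met the rule and 718, 613, 401 and 309 in the others, a log2 difference of -0.47 (SE 0.10, adjusted p = 0.0013), while at E18 and P1 together the difference was 0.30 (SE 0.09, adjusted p = 0.015). The difference between the ages was not tested, since the enzyme changed with age. The other cells also differed in make-up. In the 4 libraries compared at E16, 125 to 257 of them had neither gene, against 7 to 38 per library at E18 and P1. Against the cells with neither gene alone, Gata3 was lower at E18 and P1 too (-1.20). The part of this make-up in the Gata3 values was not tested. Bloc1s3 (1.73), Pip5kl1 (1.72), Gabrb1, a GABA-A receptor subunit (1.16), and Smim1 (1.04) were named at E16 with Nexn. Gabrb1 loses its call without apical replicate 2 (adjusted p = 0.13), apical replicate 3 (0.107) or basal replicate 3 (0.45), Pip5kl1 without basal replicate 2 (0.343) and Bloc1s3 without basal replicate 3 (0.16). Bloc1s3 measured 56, 37.3, 20 and 28.2 CPM there against 12.5, 9.91, 10.6 and 7.95, but had a log2 difference of -0.07 (SE 0.24) at E18 and P1.

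**Figure D5:**
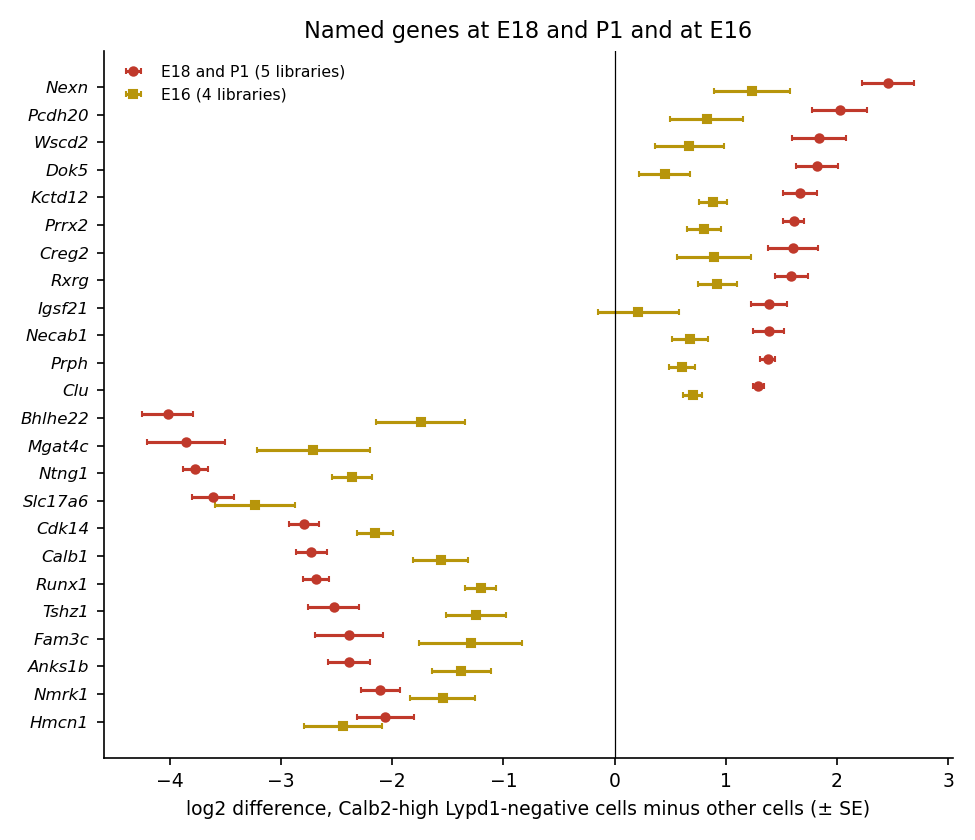
Log2 difference (± SE) between cells that met the rule and the other cells of the same library for the genes named at E18 and P1, at those ages (red circles, 5 libraries) and at E16 (yellow squares, 4 libraries). Pou4f1, with 2 UMIs in the type IA-like cells, is left out. All 12 genes plotted on the higher side and all 12 on the lower side lie on the same side of 0 at E16.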

How the data were processed

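Single-cell libraries (10x 3' chemistry) were deposited by the authors as a table of UMI counts and a table of natural log values, in which a cell's counts were scaled to 10000 UMIs, raised by 1 and logged. Cell Ranger 3.0.1 and Seurat 3.2 were used upstream with build mm10, per the submitters' processing notes. The deposited count table holds 17999 of the 26655 genes of the log table, and the counts of the other 8656 genes (28.2% of UMIs) were computed back from the log values; 100% came out whole within 0.001. The number that ends a cell's name was read as the sample number given in the descriptions; the labels do not state this link in words. No doublet caller was run here.

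Counts were summed per library and class where a class had at least 10 cells. Differences were tested with edgeR 4.0.16 (quasi-likelihood, TMM scaling, its filter on low counts) in R 4.3.3, with the library as a block, since both classes come from the same litter pool; P1 against E18 had no block. Adjusted p-values are Benjamini-Hochberg over all genes tested, and a call is an adjusted p under 0.05. DESeq2 1.42.0 was an alternative. Standard errors were derived from the log2 difference and the F statistic. Other steps used Python 3.11.15, numpy 2.4.6, scipy 1.17.1 and pandas 2.3.3. The fits were tested on simulated data: against the other cells 95.9% of genes changed 2-fold and 100% of those changed 4-fold were called, with 11 false calls among 7826 genes.

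Members and gene lists were chosen with earlier results of these data known. Named genes are the 14 largest called differences per direction against the other cells (6 against each class, 5 elsewhere) with at least 20 CPM and 1 direction in all libraries, and up to 4 genes per list; further called list members were named after their values were seen. Alternatives covered the test, the low-count filter, cell depth, the deepest 5% of cells, the block, the Calb2 threshold and each library left out. Some genes of the lists are counted but not reported here by name.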

Additional observations from a re-analysis of the deposited data

Results flagged for a closer look

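The difference between type IA-like and other cells depended on age in 3 genes, by a test of that dependence. Myl1 had an interaction of -1.82 on the log2 scale, so its excess in the type IA-like cells was smaller at P1. Gata3 had an interaction of 0.79 and Pvalb of 0.32, with the difference shifted upward at P1. The cause was not tested. The share of double-positive cells among the other cells differed between the ages, and against the Lypd1-positive cells alone Gata3 passed (1.28) while Myl1 and Pvalb did not.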

How the results depend on the processing

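The 28 genes named against the other cells kept their direction and call with DESeq2 and without each library; with no replicate block Myl1 and Hmcn1 lost theirs. Counts of calls moved more, and except where fewer cells or samples entered, the cause was not tested. Against the other cells, 827 calls became 318 with DESeq2, 457 with cells thinned to 5000 UMIs, 105 with no replicate block and 366 in the P1 libraries alone. Against double-positive cells, 358 became 215, 185 and 56 (DESeq2, thinned, no replicate block). Against Lypd1-positive cells, 1116 became 722, 676 and 266 in the same order. Against cells with neither gene, 399 became 176 thinned and 85 with no replicate block, and 213 to 390 with 1 library left out. High against low Calb2, 94 became 23 with DESeq2, 50 thinned, 52 without the deepest 5% of cells, 0 with no replicate block and 25 to 100 with 1 library left out (25 when E18 replicate 1 was dropped, 54 for E18 replicate 2, 53 for P1 replicate 1). At E16, 169 became 46 with DESeq2, 85 in cells of at least 5000 UMIs, 109 thinned, 19 with no replicate block, 66 at a Calb2 threshold of 10, 456 with apical and basal portions summed per litter pool (added after seeing the data; the portions then weigh differently in the 2 classes), and 72 to 136 with 1 library left out. The 3 calls of age dependence became 0 with DESeq2 and with no replicate block, 1 with no low-count filter, in cells of at least 5000 UMIs, thinned, and against Lypd1-positive cells alone, where Myl1 turned to 0.16, and 0 to 3 with 1 library left out. P1 against E18, 0 calls became 2 with DESeq2, 15 with no low-count filter and 0 to 1 with 1 library left out; with the replicate number as a replicate block, which pairs different litters, there were 0. The type IA-like share at E18 was 36.3% at a Calb2 threshold of 10, and at P1 38.5% with thinned cells.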
